A study of Homo sapiens with 6 samples.

Results

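The 10 genes described here are the NF-kappaB subunit genes NFKB1, NFKB2, RELA, RELB and REL and the feedback inhibitor genes NFKBIA, NFKBIZ, TNFAIP3, BIRC3 and ZC3H12A. They were chosen by name, as the rows of the deposited table that carry these symbols, and all 10 were found among its 15706 genes. RNA was sequenced from 6 libraries of MDA-MB-231, an established human triple-negative breast cancer cell line that was grown in serum-containing medium without treatment. In 3 libraries, the MLL3 knockout, a guide RNA had been aimed at MLL3, an enzyme that methylates histone H3 and is encoded by the gene KMT2C, and the other 3, the controls, carried a non-targeting guide. The labels number both groups as guides 1 to 3 and as biological replicates 1 to 3. They leave unsaid whether the numbered guides differ and whether clones or pools were used. Nothing else says that the libraries came from separate cultures, so p-values measure the spread between these libraries. That spread may include differences between guides.

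NF-kappaB is a family of dimeric transcription factors. In resting cells IkappaB proteins hold the dimers in the cytoplasm. Signals from TNF, interleukin-1 and Toll-like receptors run through adaptors and ubiquitin ligases to the IkappaB kinase, which marks the inhibitor for destruction and frees RELA-containing dimers. In a slower branch the kinase NIK and CHUK drive the processing of the NFKB2 precursor, which frees RELB. The dimers switch on their own inhibitors, among them NFKBIA and TNFAIP3, and many breast cancer lines of the basal type, MDA-MB-231 included, are known for a constantly active pathway.

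Because these genes are known both as regulators and as targets of the pathway, the DNA ahead of their annotated start sites is shown first. RefSeq promoter windows on GRCh38.p14 were available for 9 of the 10 genes, with no entry for RELB, and the 250 bases upstream of each start were searched on both strands for the kappaB consensus. At least 1 match was found for 7 of these 9 genes, or in 9 of their 14 windows, and none for RELA and ZC3H12A, against 9.96% of all 35116 windows and 11.8% of the 27305 genes with a window. A match describes letters and is not evidence of binding. Distances run from the RefSeq starts. GENCODE 29 starts REL and TNFAIP3 further upstream, so their matches lie inside these genes as annotated there. The NFKB2 match given below also lies inside its gene, which starts at chr10:102394110 in GENCODE 29. The windows of REL and TNFAIP3 hold 53 and 71 bases of GENCODE 29 exons, and that of this NFKB2 match holds 12. The NFKB1 match lies upstream of NFKB1 as annotated there, but its window holds 241 exon bases. Another window of NFKB2 and another of NFKBIZ, each with a match, hold 250 exon bases each. The window of NFKBIA is given whole, since none of it lies in an exon of GENCODE 29 (chr14:35404750-35404999, minus strand, 5′ to 3′, match in capitals), and the 30 or fewer bases around a match follow for 6 other genes, read on the strand of the gene.
NFKBIA: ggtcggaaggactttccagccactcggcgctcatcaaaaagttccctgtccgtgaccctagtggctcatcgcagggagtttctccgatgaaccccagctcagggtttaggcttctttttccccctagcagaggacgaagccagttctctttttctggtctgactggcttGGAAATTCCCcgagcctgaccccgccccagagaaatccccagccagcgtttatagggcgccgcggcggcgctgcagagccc
NFKB1 (chr4:102501300-102501329, plus strand, match starting 49 bases upstream): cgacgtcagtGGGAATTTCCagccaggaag
REL (chr2:60881518-60881546, plus strand, 47 bases upstream): gtcagccgcGGGAAATTCCCctcccgcca
NFKBIZ (chr3:101827757-101827786, plus strand, 223 bases upstream): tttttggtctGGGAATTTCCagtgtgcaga
TNFAIP3 (chr6:137867182-137867211, plus strand, 67 bases upstream): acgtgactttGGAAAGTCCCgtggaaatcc
BIRC3 (chr11:102317275-102317304, plus strand, 199 bases upstream): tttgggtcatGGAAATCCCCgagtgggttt
NFKB2 (chr10:102395674-102395703, plus strand, 21 bases upstream of the third of its starts): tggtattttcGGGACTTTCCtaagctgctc
The 10 letters GGAAATTCCC, or their complement GGGAATTTCC, occurred in the windows of 4 genes, NFKB1, REL, NFKBIA and NFKBIZ. GGAAATCCCC was shared by TNFAIP3, in a further match 55 bases upstream, and BIRC3, and GGAAAGTCCC or its complement GGGACTTTCC by TNFAIP3 and NFKB2.

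**Figure D1:**
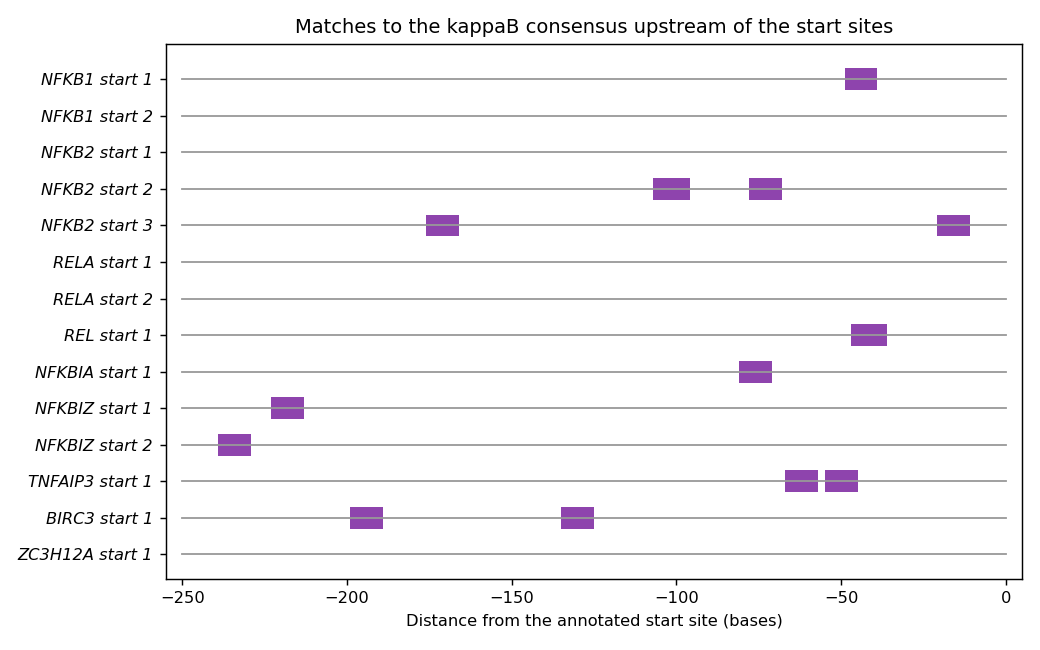
Positions of the matches to the kappaB consensus (boxes) in the 14 windows of 250 bases upstream of the annotated start sites of 9 genes; the x axis is the distance from the start in bases. RELA and ZC3H12A, and 1 window each of NFKB1 and NFKB2, have no match, and TNFAIP3 and BIRC3 each have 2 in a single window.

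The libraries held 41401044, 49514464 and 48111363 recovered reads in knockout replicates 1, 2 and 3, and 41240265, 42024652 and 48244821 in control replicates 1, 2 and 3. Levels are normalized read counts, and log2 fold changes are knockout over control on the log2(value + 1) scale from a limma fit over 14618 genes with a mean of at least 10; a gene is called where its Benjamini-Hochberg adjusted p is under 0.05. KMT2C had 1519, 1660 and 1339 counts in knockout replicates 1, 2 and 3, against 1367, 1379 and 1255 in the controls (log2 fold change 0.17, SE 0.10, limma adjusted p = 0.205), so its RNA level does not check the label. All 7 genes expected to be high in MDA-MB-231, such as VIM and CD44, were read, and 1 of them, AXL, was called lower (-0.28, SE 0.078, limma adjusted p = 0.012). With the trend removed AXL was at -0.15 (limma adjusted p = 0.097), and 1 other of the 7 was called lower. Of the 5 genes expected to be low, ESR1 and PGR were not among the rows used here. CDH1 had 2.11 to 5.51 counts in the knockout and 3.86 to 7.52 in the controls. EPCAM was not near 0, with 861 to 999 counts in the knockout and 765 to 796 in the controls, nor was CLDN3, with 226 to 250.5 in the knockout and 189 to 287 in the controls. Both a single library and base composition touched the results and are given beside them. Control replicate 1 was the lowest control for 9 of the 10 genes, while it was the lowest for 35.4% of the 14618 tested genes. Fold changes also followed transcript GC content, with a Spearman rho of -0.67 across 14598 genes, so each gene is given again with a smooth trend along GC content and length removed from each library (trend removal).

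Over all 6 libraries limma called RELA, RELB and NFKBIA lower and BIRC3 higher in the knockout, and the other 6 genes passed in neither direction. The 3 genes called lower compare with 14.4% of all tested genes called lower, and the 1 called higher with 18.9% called higher. The 3 knockout and 3 control values did not overlap for 2 of the 10 genes, RELA and BIRC3, against 46.3% of all tested genes. The median log2 fold change of the 10 genes was -0.17, and that of all tested genes -0.017. With the trend removed limma called 0 of the 10 genes (4.08% of all genes were called higher and 5.95% lower), although RELA and RELB had an unadjusted p under 0.05, and the median was -0.054 against -0.018 for all genes. Control replicate 1 was the lowest control for 9 of the 10 genes, so leaving it out lowers their fold changes by construction. Calls made without it are a description only. Without control replicate 1 limma called 0 genes higher and 5 lower, namely NFKB2, RELA, RELB, NFKBIA and ZC3H12A (22.6% of all genes were called higher and 19.6% lower). BIRC3 alone had an unadjusted p under 0.05 in the higher direction. With both changes it called 0 higher, with no gene of the 10 at an unadjusted p under 0.05 in that direction, and 6 lower, the same 5 and BIRC3 (10.2% of all genes higher and 14.5% lower), with a median of -0.19 against -0.020 for all genes. Leaving out single libraries also moved calls. NFKBIA lost its call, at limma adjusted p from 0.093 to 0.24, without any library other than control replicate 1. Without knockout replicate 1 RELA (0.060), RELB (0.061) and BIRC3 (0.13) also missed the threshold of limma's adjusted p, and without knockout replicate 2 BIRC3 did (0.060). In bulk RNA, fewer cells that express a gene and less RNA per cell cannot be told apart.

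**Figure D2:**
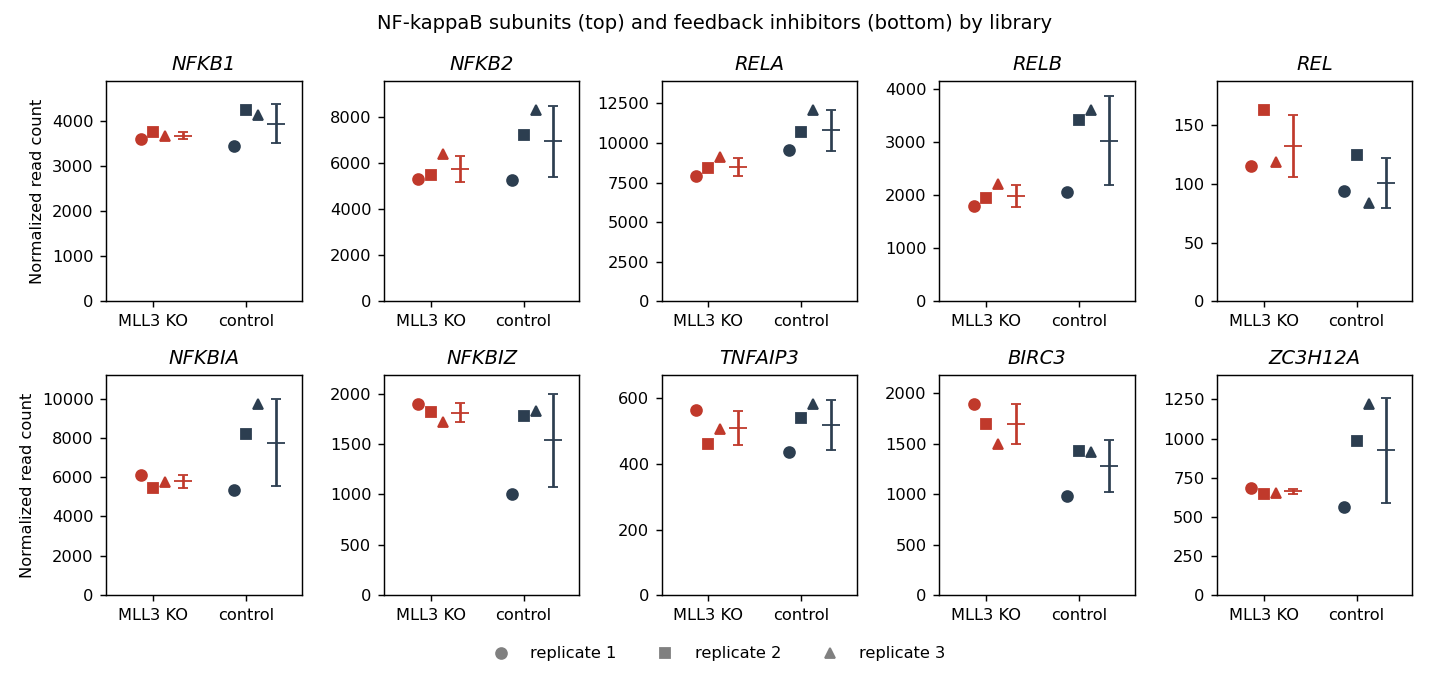
Normalized read counts of the 5 subunit genes (top) and 5 feedback inhibitor genes (bottom) in each library, with MLL3 knockout left and control right; bars are mean and SD (n = 3) and symbols mark the replicate number. The knockout values of RELA lie below and those of BIRC3 above all control values, and control replicate 1 (circle) is the lowest control in every panel except REL.

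RELA (ENSG00000173039.19, chr11:65653596-65663094, minus strand, GENCODE 29 on GRCh38) encodes p65, the main transactivating subunit of the fast branch. It had 7942, 8408 and 9098 counts in knockout replicates 1, 2 and 3, against 9556, 10722 and 12100.4 in the controls. All 3 knockout libraries were below all 3 controls. Its log2 fold change was -0.34 (SE 0.090, limma adjusted p = 0.0086). It was -0.15 (SE 0.059, limma adjusted p = 0.14) with the trend removed and -0.43 (SE 0.082, limma adjusted p = 9.1e-05) without control replicate 1. With both changes it was -0.21 (SE 0.044, limma adjusted p = 0.00068). RELB (ENSG00000104856.14, chr19:45001430-45038198, plus strand), the transactivating subunit of the slow branch, had 1800.0, 1942 and 2207 counts in the knockout, against 2059, 3419 and 3611 in the controls. The groups overlapped, because knockout replicate 3 exceeded control replicate 1, and the other 2 controls stood well above all 3 knockout libraries. On the log2 scale RELB differed by -0.57 (SE 0.15, limma adjusted p = 0.0088), the furthest from 0 among the 10 genes over all 6 libraries. It was -0.33 (SE 0.14, limma adjusted p = 0.18) with the trend removed and -0.83 (SE 0.095, limma adjusted p = 3.5e-08) without control replicate 1. With both changes it was -0.56 (SE 0.056, limma adjusted p = 5.6e-08), close to its value over all libraries.

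NFKB2 (ENSG00000077150.20, chr10:102394110-102402529, plus strand) encodes p100, the precursor of p52, the usual partner of RELB. It had 5339.8, 5496 and 6414 counts in the knockout, against 5272, 7247 and 8329 in the controls. All 3 knockout values lay within the control range, above control replicate 1 and below the other 2 controls. With all libraries limma gave -0.25 (SE 0.12, adjusted p = 0.12), short of the threshold. It was -0.024 (limma adjusted p = 0.92) with the trend removed, and -0.44 (SE 0.087, limma adjusted p = 0.00015) without control replicate 1. NFKB1 (ENSG00000109320.13, chr4:102501329-102617302, plus strand) encodes p105, the precursor of p50, the usual partner of RELA. It had 3585, 3750.4 and 3667 counts in the knockout, against 3434, 4238 and 4127 in the controls. The knockout libraries again sat between control replicate 1 and the other 2 controls. Its log2 fold change was -0.095 (SE 0.091, limma adjusted p = 0.44), -0.042 (SE 0.073, limma adjusted p = 0.77) with the trend removed, and -0.19 (SE 0.084, limma adjusted p = 0.066) without control replicate 1. REL (ENSG00000162924.14, chr2:60881521-60931610, plus strand), which encodes c-Rel, a subunit best known in lymphocytes, was read at the lowest counts of the 10 genes. It had 115, 163 and 118 counts in the knockout, against 93.7, 125 and 84.0 in the controls. The groups overlapped through control replicate 2, and the difference of 0.39 (SE 0.22, limma adjusted p = 0.17) turned to -0.065 (limma adjusted p = 0.88) with the trend removed. GENCODE 29 places a same-strand gene, AC010733.2, over 5702 of the 13170 exon bases of REL, and how reads there were assigned is not known here. Antisense genes cover 9 exon bases of RELA and 95 of TNFAIP3, and MIR6732 lies in 60 of ZC3H12A.

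NFKBIA (ENSG00000100906.10, chr14:35401511-35404749, minus strand) encodes IkappaB alpha, which captures RELA dimers and is remade under their control. It had 6125, 5469.7 and 5769 counts in the knockout, against 5365, 8172 and 9743 in the controls. The 3 knockout libraries lay within the control range, close to control replicate 1 and far below the other 2. NFKBIA differed by -0.38 on the log2 scale (SE 0.14, limma adjusted p = 0.047), and by -0.22 (SE 0.15, limma adjusted p = 0.40) with the trend removed. Without control replicate 1 it was -0.63 (SE 0.085, limma adjusted p = 5.8e-07), and with both changes -0.46 (SE 0.053, limma adjusted p = 4.2e-07). DESeq2 on the recovered reads gave -0.42 (adjusted p = 0.15), so the call over all libraries depended on the test. NFKBIZ (ENSG00000144802.11, chr3:101827991-101861022, plus strand) encodes IkappaB zeta, a nuclear member of the family that can activate as well as repress. It had 1901, 1820.3 and 1716 counts in the knockout, against 1001, 1783 and 1826 in the controls. Control replicate 1 stood alone below the other 5 libraries. The difference of 0.29 on the log2 scale (SE 0.16, limma adjusted p = 0.17) became 0.0054 (SE 0.095, limma adjusted p = 0.97) without that library, and was 0.21 (SE 0.18, limma adjusted p = 0.51) with the trend removed.

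TNFAIP3 (ENSG00000118503.15, chr6:137867188-137883312, plus strand) encodes A20, a ubiquitin-editing enzyme that stops signalling at the adaptors. It had 564, 459.9 and 506 counts in the knockout, against 435, 539 and 584 in the controls. The knockout values lay inside the control range, and the log2 fold change was -0.020 (SE 0.13, limma adjusted p = 0.92) with a 95% interval of -0.30 to 0.26. It was 0.0086 (limma adjusted p = 0.98) with the trend removed, and without control replicate 1 -0.14 (limma adjusted p = 0.39). BIRC3 (ENSG00000023445.15, chr11:102317450-102339403, plus strand) encodes cIAP2, a ubiquitin ligase at the TNF receptor that also keeps NIK low. It had 1896, 1691 and 1494 counts in the knockout, against 982, 1431 and 1419.9 in the controls. All 3 knockout libraries were above all 3 controls, with knockout replicate 3 and control replicate 2 close together. Its log2 fold change was 0.42 (SE 0.13, limma adjusted p = 0.021), and 0.24 (SE 0.10, limma adjusted p = 0.056) without control replicate 1. With the trend removed it was -0.019 (SE 0.13, limma adjusted p = 0.95), and with control replicate 1 also left out -0.21 (SE 0.066, limma adjusted p = 0.021), the opposite direction. ZC3H12A (ENSG00000163874.11, chr1:37474552-37484379, plus strand) encodes regnase-1, a ribonuclease that cuts inflammatory messenger RNAs. It had 683, 649 and 654 counts in the knockout, against 566, 983 and 1224 in the controls. The knockout libraries were nearly equal to each other, while the controls spanned more than the whole knockout range on both sides. For ZC3H12A limma gave -0.41 on the log2 scale (SE 0.19, adjusted p = 0.097), which missed the threshold, edgeR on the recovered reads called it (-0.49, adjusted p = 0.044), and DESeq2 did not (-0.48, adjusted p = 0.22). It was -0.18 (SE 0.19, limma adjusted p = 0.62) with the trend removed, -0.73 (SE 0.12, limma adjusted p = 7.4e-06) without control replicate 1 and -0.17 (limma adjusted p = 0.47) without control replicate 3.

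**Figure D3:**
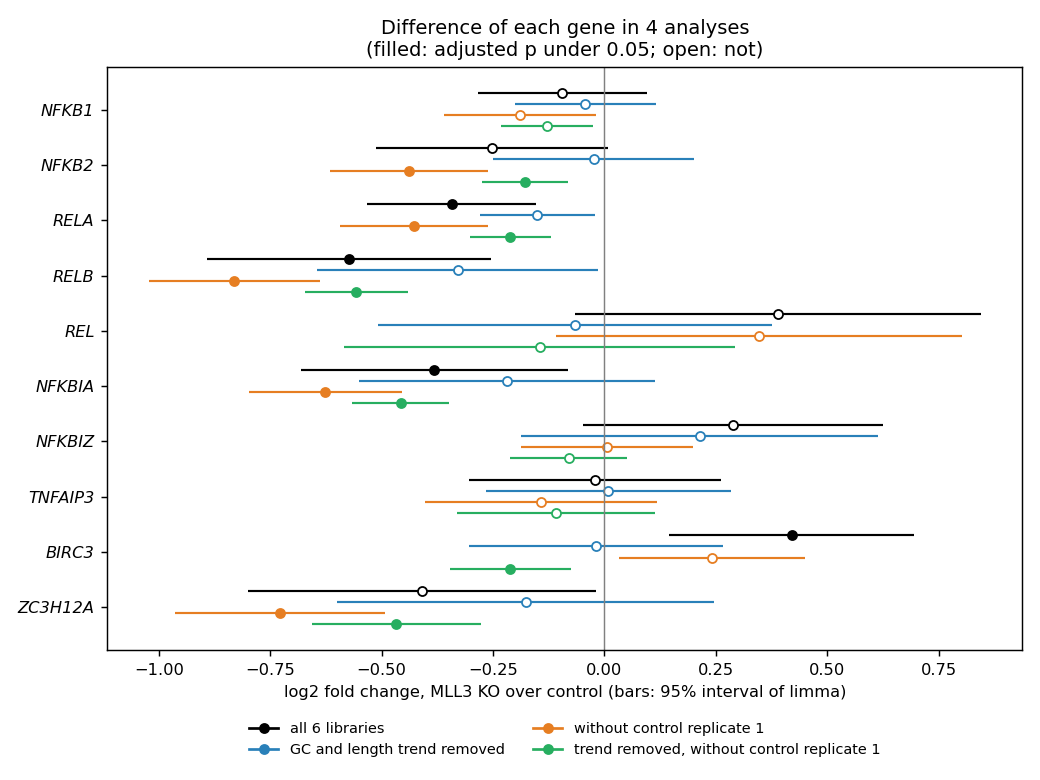
Log2 fold change, MLL3 knockout over control, of each gene with its 95% limma interval in 4 analyses; filled points have an adjusted p under 0.05. NFKB1, NFKB2, RELA, RELB, NFKBIA and ZC3H12A are below 0 in all 4, while BIRC3 is at 0.42 over all libraries and at -0.21 with the trend removed and control replicate 1 left out.

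The 10 genes varied more among the control libraries than among the knockout libraries. The SD of log2 values within the group was lower in the knockout for each of the 10, though by little for REL (0.28 in the knockout and 0.29 in the controls). ZC3H12A had an SD of 0.040 in the knockout and 0.57 in the controls, and NFKBIZ 0.074 in the knockout and 0.49 in the controls. NFKBIA had 0.082 in the knockout and 0.44 in the controls, and RELB 0.15 in the knockout and 0.45 in the controls. The median gene with a mean of at least 50 had 0.10 in the knockout and 0.13 in the controls (12454 genes). These 4 genes had the largest control SDs of the 10, above those of 96.5% to 98.7% of genes. The others ran from 64.3% for NFKB1 and 66.0% for RELA to 92.4% for NFKB2. How many of all genes had a lower SD in the knockout was not counted. All 3 knockout values fell inside the control range for 5 of the 10 genes, against 12.7% of all tested genes. The same held for 16 of 27 tested target genes of the pathway (59.3%), so it is not particular to the 10. No test of the spread was run.

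**Figure D4:**
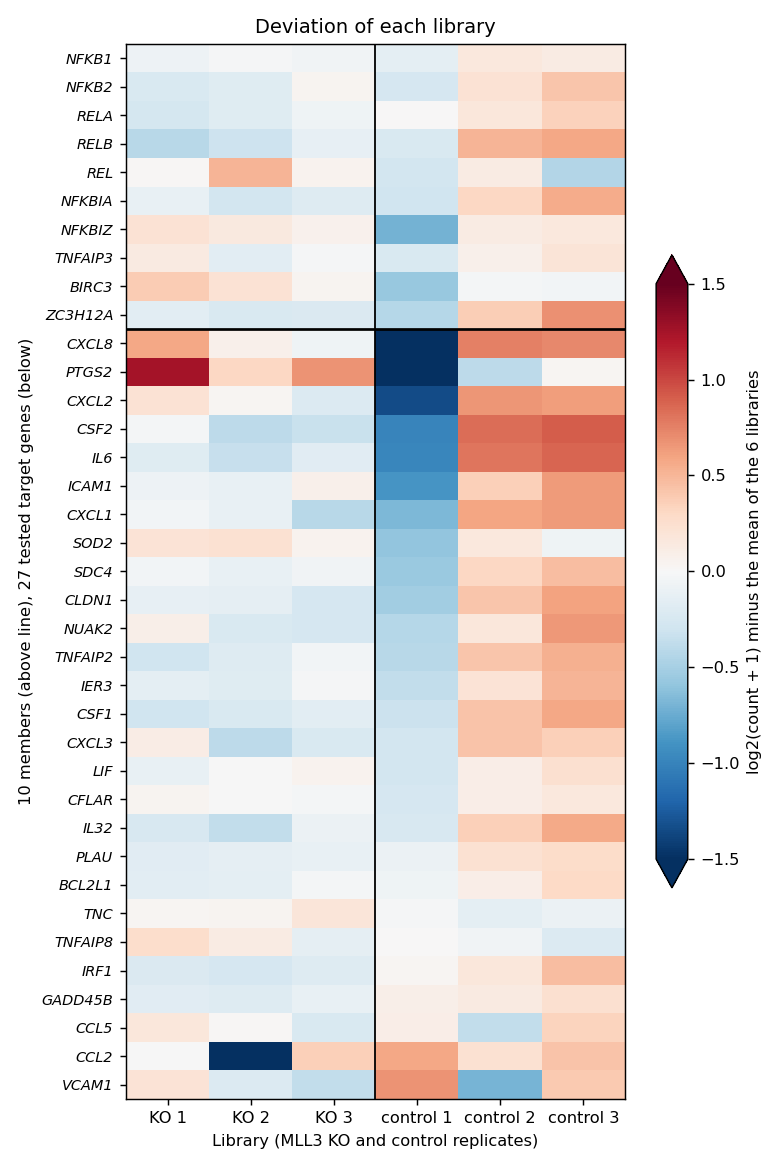
Deviation of each library (columns, knockout left of the black line) from the mean of the 6 libraries, as log2(count + 1), for the 10 genes (top) and 27 tested target genes of the pathway (bottom); colours stop at 1.5 in either direction. Control replicate 1 is blue, that is low, for most rows, while control replicates 2 and 3 are mostly red, and the knockout libraries lie between.

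Levels of different genes were compared per kilobase of exon, as normalized counts divided by the length of all annotated exons. NFKBIA was highest with 2439 ± 138 per kilobase in the knockout and 3270.0 ± 935 in the controls (SD, n = 3 each). RELA followed with 1552 ± 106 in the knockout and 1975 ± 233 in the controls, and NFKB2 with 1282 ± 129 in the knockout and 1549.9 ± 346 in the controls. The single libraries of RELA and NFKB2 overlapped in the controls and not in the knockout. RELB stood at 653 ± 68.0 in the knockout and 998 ± 279 in the controls, and NFKB1 at 586 ± 13.2 in the knockout and 629 ± 69.6 in the controls. NFKB2 and RELB overlapped in the controls and not in the knockout. RELB and NFKB1 overlapped in the knockout and not in the controls. These overlaps are of group ranges. Within every single library RELA was above NFKB2, NFKB2 above RELB and RELB above NFKB1. NFKBIZ stood at 307 ± 15.8 in the knockout and 260.3 ± 78.7 in the controls, BIRC3 at 225 ± 26.8 in the knockout and 169.9 ± 34.0 in the controls, and ZC3H12A at 212 ± 5.98 in the knockout and 296 ± 107 in the controls. In the knockout NFKBIZ was above BIRC3 and ZC3H12A without overlap, and these 2 overlapped. In the controls ZC3H12A had the highest mean of the 3, with overlap of ZC3H12A and NFKBIZ and of NFKBIZ and BIRC3. Within each control library ZC3H12A was above NFKBIZ and NFKBIZ above BIRC3. TNFAIP3 stood at 101 ± 10.3 in the knockout and 103 ± 15.1 in the controls. REL was lowest at 10.0 ± 2.03 in the knockout and 7.65 ± 1.61 in the controls, with no overlap with TNFAIP3 in either group.

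Shares of the subunit pool were taken within each library. RELA made up 37.7% to 38.3% of the summed subunit level per kilobase in the knockout libraries and 36.4% to 42.1% in the controls. RELB made up 15.5% to 16.5% in the knockout and 16.3% to 20.9% in the controls, which overlap narrowly. NFKB1 made up 13.3% to 15.0% in the knockout and 11.1% to 13.2% in the controls, without overlap. REL made up 0.203% to 0.308% in the knockout and 0.108% to 0.175% in the controls, also without overlap. These 2 have the lowest GC content of the 5 subunit genes (REL 38.7%, NFKB1 50.1%), and shares were not trend-corrected. With the trend removed the log2 fold change of REL was -0.065 and that of NFKB1 -0.042. The level of REL also rests in part on exon bases shared with AC010733.2. Shares sum to a fixed total, so a larger share of NFKB1 goes with smaller shares of other subunits. The ratio of NFKBIA to RELA per kilobase, inhibitor to subunit, was 1.46 to 1.78 in the knockout and 1.29 to 1.85 in the controls, the knockout range inside that of the controls. For BIRC3 to RELA it was 0.119 to 0.174 in the knockout and 0.0747 to 0.0970 in the controls, with no overlap. The ratio of BIRC3 to RELA sets a transcript with 34.8% GC against one with 57.1%, and that of NFKBIA to RELA one with 53.1%. Neither ratio was trend-corrected.

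The fold changes of the 10 genes can be set beside their GC content. BIRC3, with 34.8% GC, has a lower GC content than all but 1.18% of genes, and REL has 38.7%; these were the largest positive fold changes of the 10. RELB at 65.4%, NFKB2 at 62.4%, ZC3H12A at 61.2% and RELA at 57.1% lie above the median gene at 48.5%, and their fold changes were negative. NFKBIA, at 53.1%, was lower in the knockout by more than NFKB1, at 50.1%. With the trend removed and all libraries kept, the 10 log2 fold changes ran from -0.33 for RELB to 0.21 for NFKBIZ. Whether the trend is technical was not tested.

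**Figure D5:**
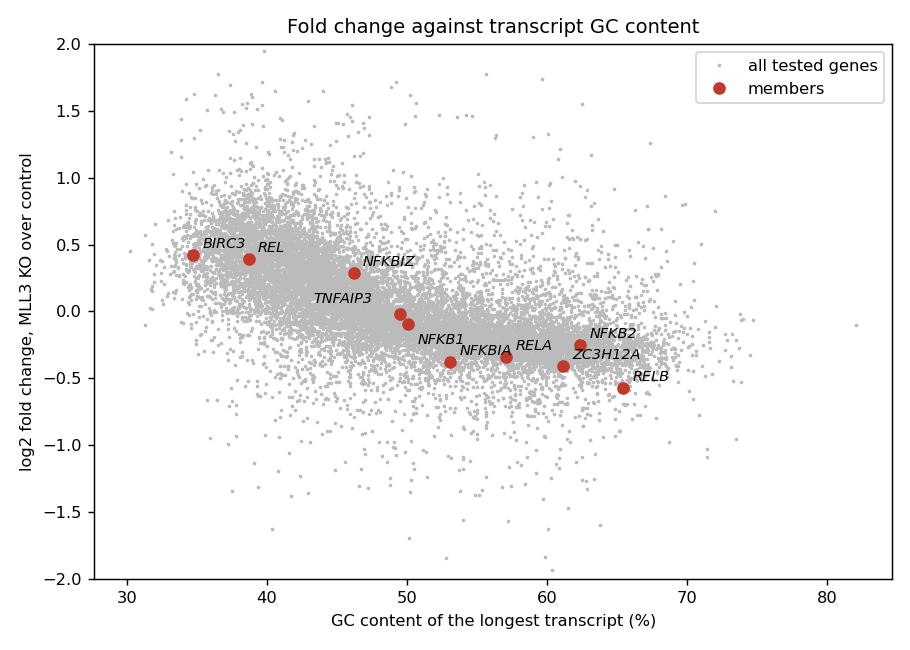
Log2 fold change, MLL3 knockout over control, against the GC content of the longest transcript for 14598 tested genes (grey; 8 lie outside the drawn range) and the 10 genes (red). BIRC3 and REL lie at the low-GC, positive end and RELB, NFKB2 and ZC3H12A at the high-GC, negative end.

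Counts of calls among other genes of the pathway are to be read against the 18.9% of all tested genes called higher and the 14.4% called lower, or with the trend removed against 4.08% and 5.95%. Of 17 tested IkappaB kinase and upstream kinase genes, 6 were called higher and 4 lower (median log2 fold change 0.15). Their median was -0.015 with the trend removed. CHUK, the kinase subunit used by both branches, had 2436, 2107 and 1956 counts in the knockout, against 1523, 1522 and 1419.9 in the controls (0.54, SE 0.098, limma adjusted p = 0.00073). IKBKG, the scaffold NEMO, had 701, 664 and 731 counts in the knockout, against 958, 920.4 and 893 in the controls (-0.40, SE 0.10, limma adjusted p = 0.0080). The groups overlapped for neither gene, IKBKG has a near-identical pseudogene that can share its reads, and with the trend removed CHUK was at 0.10 (limma adjusted p = 0.35) and IKBKG at -0.16 (limma adjusted p = 0.32). TAB3, an adaptor of the TAK1 kinase, was at 0.63 (SE 0.098, limma adjusted p = 0.00022), and at 0.20 (limma adjusted p = 0.077) with the trend removed. IRAK1, a kinase of the interleukin-1 and Toll-like receptors, had 17976, 18863 and 21390.5 counts in the knockout, against 29434, 25309.6 and 27712 in the controls. It fell without overlap (-0.50, SE 0.085, limma adjusted p = 0.00041) and still did so with the trend removed (-0.28, limma adjusted p = 0.025), the single kinase of the 17 called there.

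Of 18 tested adaptor and ubiquitin ligase genes 4 were called higher and 6 lower (median -0.024). With the trend removed 1 was called higher and 0 lower (median -0.055). TRAF5, an adaptor of TNF family receptors, had 1032, 968 and 951 counts in the knockout, against 587, 695 and 555 in the controls (0.69, SE 0.11, limma adjusted p = 0.00033), and was the gene still called with the trend removed (0.43, limma adjusted p = 0.013). MALT1, a protease of lymphocyte signalling, was also higher (0.50, SE 0.10, limma adjusted p = 0.0014). TRADD, the adaptor of TNF receptor 1, was lower (-0.40, SE 0.090, limma adjusted p = 0.0032), as was TRAF1 (-0.51, SE 0.13, limma adjusted p = 0.0073), which is itself a target of the pathway. Of 19 receptor genes 3 were called higher and 2 lower (median -0.071). With the trend removed 0 were called higher and 1, TNFRSF1B, lower (median 0.0021). TNFRSF1B, TNF receptor 2, had 696, 685 and 775 counts in the knockout, against 1244, 1071 and 1129 in the controls (-0.67, SE 0.11, limma adjusted p = 0.00023), and was lower with the trend removed too (-0.46, limma adjusted p = 0.0093). TLR4, the endotoxin receptor, had 294, 302 and 240.4 counts in the knockout, against 135, 125 and 178 in the controls (0.94, SE 0.18, limma adjusted p = 0.00086), and 0.49 with the trend removed (limma adjusted p = 0.11). IL1RAP, the shared interleukin-1 receptor chain, was higher (0.49, SE 0.15, limma adjusted p = 0.018) and IL17RC lower (-0.29, SE 0.091, limma adjusted p = 0.020). Among 6 tested ligands IL18 (0.53, SE 0.13, limma adjusted p = 0.0058) and TNFSF10, the death ligand TRAIL (0.51, SE 0.14, limma adjusted p = 0.0099), were higher and TNFSF12, the ligand TWEAK, lower (-0.41, SE 0.11, limma adjusted p = 0.0074). After trend removal limma called 0 of the 6 ligands, and 0 had an unadjusted p under 0.05; IL18 and TNFSF10 were both at 0.18 (adjusted p = 0.44 and 0.51) and TNFSF12 at -0.15 (adjusted p = 0.22). The median of the ligands was 0.49 over all libraries, 0.18 with the trend removed and -0.10 without control replicate 1.

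Among 19 further IkappaB family genes, A20 partners and related negative regulators 5 were called higher and 3 lower (median 0.090). Their median was -0.018 with the trend removed. BIRC2, which encodes cIAP1 and is the close relative of BIRC3, had 5174, 4934 and 4573 counts in the knockout, against 3344, 2994 and 2965 in the controls. The groups did not overlap, and control replicate 1 was the highest control here. The log2 fold change was 0.66 (SE 0.086, limma adjusted p = 5.5e-05), and it was 0.25 (limma adjusted p = 0.017) with the trend removed, where that of BIRC3 was -0.019. How reads shared by these related genes were counted is not known here. RC3H2, roquin-2, which like regnase-1 acts in messenger RNA decay, was higher (0.55, SE 0.10, limma adjusted p = 0.00073), and TNIP2 (-0.28, SE 0.087, limma adjusted p = 0.020) and BCL3, a nuclear IkappaB relative (-0.32, SE 0.12, limma adjusted p = 0.041), were lower. With the trend removed 2 of the 19 were called, BIRC2 and TAX1BP1. TAX1BP1, an A20 partner chosen after its values were seen, was higher over all libraries (0.31, SE 0.086, limma adjusted p = 0.011) and with the trend removed (0.31, limma adjusted p = 0.018).

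Of 27 tested target genes 1 was called higher and 5 lower, against 18.9% and 14.4% of all tested genes. Their median log2 fold change was -0.25, and -0.13 with the trend removed. IRF1, an interferon pathway transcription factor, had 1789, 1745 and 1816 counts in the knockout, against 2114, 2345 and 2853 in the controls. It fell without overlap (-0.44, SE 0.10, limma adjusted p = 0.0045) and with the trend removed (-0.34, limma adjusted p = 0.027). GADD45B, a stress-response gene, was lower (-0.31, SE 0.086, limma adjusted p = 0.012), and PTGS2, cyclooxygenase 2, was higher at low counts of 82.4, 42.5 and 55.1 in the knockout, against 8.62, 25.8 and 34.8 in the controls (1.49, SE 0.43, limma adjusted p = 0.014; 0.93, adjusted p = 0.025, without control replicate 1). With the trend removed limma called 1 target gene higher, TNC, an extracellular matrix gene chosen after its values were seen (0.27, adjusted p = 0.026), and 1 lower, IRF1. Control replicate 1 was the lowest control for 22 of the 27 target genes, and leaving it out lowers their fold changes by construction. Without it 1 was called higher and 18 lower, against 22.6% and 19.6% of all tested genes. Genes chosen after their values were seen show the size of that gap. CXCL8, the neutrophil chemokine interleukin-8, had 1446, 1016 and 928 counts in the knockout, against 231, 1631 and 1589 in the controls. IL6 had 315, 279 and 316 in the knockout, against 179.9, 624 and 653 in the controls. CSF2, the growth factor GM-CSF, had 706, 549 and 571 in the knockout, against 361, 1283 and 1351 in the controls. In each, all 3 knockout libraries stood between control replicate 1 and the other 2 controls, as for NFKB1, NFKB2, NFKBIA and ZC3H12A.

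The genes whose profile over the 6 libraries was nearest to that of a called gene were found among 12453 genes with a mean of at least 50, by the root mean square difference of centred log2 values. The nearest to RELA were SLC44A2 (0.013) and CBX7 (0.024), and to RELB FZD8 (0.073) and VSIR (0.074). Among the nearest to NFKBIA was S100A3 (0.065), which had 1820.1, 1599.6 and 1890.1 counts in the knockout, against 1727, 2594 and 3179 in the controls. The nearest to BIRC3 were MSMO1 (0.035) and CD58 (0.040). Likeness over 6 libraries is given as a description.

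Markers of other cell types were also read. The 7 of 10 leukocyte markers read summed to 843 to 1096 counts in the knockout libraries and 1268 to 1504 in the controls. PTPRC, the pan-leukocyte marker CD45, had 197 to 259 counts in the knockout and 258 to 302 in the controls, and CD3D and MS4A1 were not among the rows used here. CD14 was called lower (-0.69, SE 0.24, limma adjusted p = 0.032), with 209, 197 and 222 counts in the knockout, against 194, 410.3 and 482 in the controls. It was at -0.46 (limma adjusted p = 0.28) with the trend removed and at -1.09 (limma adjusted p = 1.1e-06) without control replicate 1, and DESeq2 did not call it (adjusted p = 0.087). With the trend removed 1 other leukocyte marker was called lower. Of 7 fibroblast markers, DCN, FAP, LUM, PDGFRA and THY1 were not among the rows used here, nor was CDH5 of 4 endothelial markers. The 2 fibroblast markers read, PDGFRB (-0.48, SE 0.11, limma adjusted p = 0.0046) and COL1A1 (-0.55, SE 0.18, limma adjusted p = 0.027), were called lower. So was 1 of 2 tested endothelial markers, KDR (-0.66, SE 0.18, limma adjusted p = 0.012). PDGFRB with the trend removed was at -0.31 (limma adjusted p = 0.091), COL1A1 at -0.36 (limma adjusted p = 0.21) and KDR at -0.72 (limma adjusted p = 0.020). The 2 fibroblast markers summed to 701 to 810.0 counts in the knockout and 977 to 1092 in the controls, and the 3 endothelial markers read to 166 to 207 in the knockout and 222 to 292 in the controls. The part of these markers in the results was not tested. In the authors' deposited table, RELA (log2 fold change -0.35, adjusted p = 0.0033), RELB (-0.61, adjusted p = 0.041) and BIRC3 (0.41, adjusted p = 0.014) passed 0.05 and NFKBIA did not (-0.42, adjusted p = 0.163).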

How the data were processed

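RNA-seq of 3 knockout and 3 control libraries was used. Reads were handled with FastQC, STAR (version 2.4.0), featureCounts (version 1.5.0) and DESeq2 (version 1.30.1) on build GRCh38.p13, per the submitters' processing notes. Its strand setting and annotation release were not given in the sources used here. Per the file headers, the authors deposited for each gene a normalized read count per library (a signal, reads divided by a size factor), a log2 fold change with its standard error, a Wald score, a p-value and an adjusted p-value. Dividing each library by its own smallest step gave whole reads for 100% of values (within 0.01). Every row had at least 1 read in each library.

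Groups were compared on log2(value + 1) with limma 3.58.1 under R 4.3.3, variance trend included, two-sided, Benjamini-Hochberg over 14618 genes, threshold 0.05; the added 1 understates the change of low genes. Alternatives were pseudocounts of 0.5 and 8, no filter, a mean of at least 50, quantile normalization, edgeR 4.0.16 (quasi-likelihood) and DESeq2 1.42.0 on recovered reads, a replicate block, leaving out each library, and removal of natural splines with 5 terms each of GC percent and log2 length from each library. With 3 against 3 an exact permutation test cannot go below p = 0.1, so none is given. The scripts were tested on simulated data. GC content, exon lengths, overlaps and coordinates come from GENCODE 29 (GRCh38), in which 15681 of 15706 genes were found. Named genes were the 10 genes, KMT2C, up to 2 per direction and list with the smallest adjusted p past the threshold, and the 2 nearest profiles of each called gene. A gene that met this rule is not reported here. The 10 genes and all lists were chosen with earlier results of these data known.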

Additional observations from a re-analysis of the deposited data

How the results depend on the processing

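Among the 10 genes, limma called 1 higher and 3 lower. The counts were the same with pseudocounts of 0.5 or 8, no filter or a mean of at least 50; edgeR gave 1 and 4, DESeq2 1 and 2, and quantile normalization 0 and 2, with BIRC3 and 4 genes lower at an unadjusted p under 0.05. Trend removal, alone or with a replicate block, gave 0 and 0, with RELA and RELB at an unadjusted p under 0.05. Leaving out 1 library, with or without trend removal, gave 0 to 2 called higher and 0 to 6 called lower. Without knockout replicate 1 both counts were 0 (1 higher and 3 lower at an unadjusted p under 0.05), without knockout replicate 2 they were 0 and 2, without knockout replicate 3 or control replicate 2 they were 1 and 2, without control replicate 1 0 and 5, and without control replicate 3 2 and 2, with NFKBIZ joining BIRC3.
Trend removal, with or without the block, turned the log2 fold change of BIRC3 to -0.019, of REL to -0.065 and of TNFAIP3 to 0.0086. When libraries were left out, with or without trend removal, values ran from -0.21 to 0.51 for BIRC3, -0.20 to 0.55 for REL, -0.14 to 0.098 for TNFAIP3, -0.080 to 0.44 for NFKBIZ, -0.19 to 0.011 for NFKB1, -0.44 to 0.072 for NFKB2 and -0.73 to 0.013 for ZC3H12A; RELA, RELB and NFKBIA stayed below 0. The cause was not tested. Where 1 library was left out, the fit also had fewer libraries.
Over all genes, 2760 higher and 2099 lower became 595 and 868 with trend removal, 540 and 773 with the block as well, 1587 and 556 without knockout replicate 1, 1784 and 715 without knockout replicate 2, 2325 and 1355 without control replicate 2, and 2088 and 1066 without control replicate 3. After trend removal they were 1490 and 2110 without control replicate 1, and between 127 and 375 higher and 252 and 511 lower without any other library.
Same-numbered libraries of the groups had correlations of 0.066, 0.0063 and 0.13 between their deviations. Knockout replicates 1 and 3 correlated best with the control of the same number, and knockout replicate 2 with control replicate 1 (0.022). Correlations this small cannot decide whether the numbers pair the samples. With the replicate block 3241 genes were higher and 3024 lower; among the 10 genes BIRC3 (limma adjusted p = 0.035) was higher and NFKB2 (0.028), RELA and RELB lower, with NFKBIA at 0.053. The 9 genes other than REL had 435 counts or more in every library; REL, with 84.0 to 163, is the least precise.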
